A study of Mus musculus with 6 samples.

Results

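The 70 small nucleolar RNA (snoRNA) loci described here are the rows of a mouse retina RNA-seq table whose gene name starts with Snord (box C/D class, 45 loci) or Snora (H/ACA class, 25 loci) and whose mean over the 6 libraries was at least 0.5 RPKM. RPKM divides the reads of a gene by the length of its model and the depth of the library. The members were thus chosen by their measured level, and that level is given as a description with no test. The table holds 105 snoRNA rows among 22731 rows in all, 69 of the C/D class and 36 of the H/ACA class. The 35 rows below the level are accounted for further on.

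Small nucleolar RNAs guide the chemical modification of other RNAs, mainly ribosomal RNA, by base pairing with the site to be modified. Box C/D snoRNAs carry a C box near the 5′ end and a D box near the 3′ end and direct 2′-O-methylation by fibrillarin, while H/ACA snoRNAs end in an ACA box and direct pseudouridylation by dyskerin. In mammals most are cut out of introns of host genes, often genes of ribosomal proteins and translation factors, and the mature RNAs mostly lack a poly(A) tail.

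The libraries were made from whole retinas of mice aged 4 weeks on a mixed C57BL/6J - SJL background, collected between 8 and 10 in the morning. Conditional knockout (cKO) mice were Dicer fl/fl, iCre75+ and their control littermates Dicer fl/fl, iCre75-, so both groups carried the floxed alleles of Dicer1, the ribonuclease that cuts microRNA precursors, and only the cKO group had Cre recombinase, which this transgene drives in rod photoreceptors. Each of the 3 libraries per group (cKO replicates 2, 3 and 4, control replicates 1, 2 and 3) held poly(A) RNA from a pool of 4 mice, primed at random and without a record of strand, so the spread within a group is that between pools. Other retinal cells kept Dicer1, and its level was 8.02, 7.06 and 7.90 RPKM in the cKO libraries against 8.48, 8.77 and 8.33 RPKM in the controls. All 3 cKO values lay below all 3 control values, with a difference of -0.15 ± 0.08 (SE) on the log2(RPKM + 0.5) scale and a limma adjusted p of 0.912. The RPKM covers the whole gene model, including exons that Cre does not remove.

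The reads behind each value were worked back from the RPKM steps, and the depth ranged from 15128203 reads in cKO replicate 4 to 40523119 in control replicate 3. Of these, between 12336602 and 32935038 reads per library fell in genes of the table. The retina's own markers were high in every library: the 6 rod genes (rhodopsin, Nrl and others) summed to between 19559 and 24051 RPKM. Lens crystallins (Cryaa, Cryba1 and Crygs) ranged from 128 RPKM in cKO replicate 4 to 2296 RPKM in control replicate 1. Of the blood genes, Alas2 had between 0.568 and 1.32 RPKM in every library, while the hemoglobin genes Hbb-b1 and Hba-a1, which have near-identical copies, were listed at 0. The 3 germ cell markers summed to at most 0.535 RPKM in a library. Of the bipolar cell genes, Grm6 had 52.6 ± 5.41 RPKM in control and 62.4 ± 4.41 in cKO libraries (SD, n = 3), with a limma adjusted p of 0.846. The part of these markers in the results below was not tested.

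The sequences of the 4 box C/D and 3 H/ACA members with the highest mean levels are printed here. They are shown 5′ to 3′ as DNA letters from the GENCODE M21 transcripts on GRCm38, which is not the build the authors used and serves only to place the genes. Capitals mark TGATGA, the C box, within the first 25 bases, CTGA, the D box, within the last 15 bases, and ACA at exactly 3 bases from the 3′ end of H/ACA loci. Snord37 (chr10:81178950-81179013, plus strand) lies in an intron of Eef2, the gene of a translation elongation factor. Snord96a (chr11:48802032-48802112, plus strand) overlaps an annotated exon of Rack1, which encodes a ribosome-associated scaffold. Snord91a (chr11:74905424-74905516, plus strand) lies in an intron of the ribosome maturation gene Tsr1, and Snord42b (chr11:78183056-78183124, minus strand) overlaps an exon of the ribosomal protein gene Rpl23a.
Snord37: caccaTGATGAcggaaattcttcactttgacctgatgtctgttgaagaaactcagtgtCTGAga
Snord96a: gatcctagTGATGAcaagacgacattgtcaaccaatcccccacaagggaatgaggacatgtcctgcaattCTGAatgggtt
Snord91a: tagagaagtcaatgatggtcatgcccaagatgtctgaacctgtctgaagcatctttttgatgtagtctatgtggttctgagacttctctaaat
Snord42b: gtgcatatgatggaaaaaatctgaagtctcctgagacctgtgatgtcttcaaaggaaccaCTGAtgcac

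Among H/ACA members, Snora64 (chr17:24720772-24720905, plus strand) overlaps an annotated exon of the ribosomal protein gene Rps2. Snora61 (chr4:132310240-132310369, plus strand) overlaps an exon of the noncoding host Snhg12, and Snora65 (chr2:32963291-32963420, plus strand) one of the ribosomal protein gene Rpl12.
Snora64: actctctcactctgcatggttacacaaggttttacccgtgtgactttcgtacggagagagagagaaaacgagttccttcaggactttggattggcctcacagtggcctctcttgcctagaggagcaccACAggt
Snora61: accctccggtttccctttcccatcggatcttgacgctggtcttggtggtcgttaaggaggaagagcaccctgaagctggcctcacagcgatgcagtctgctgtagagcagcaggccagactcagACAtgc
Snora65: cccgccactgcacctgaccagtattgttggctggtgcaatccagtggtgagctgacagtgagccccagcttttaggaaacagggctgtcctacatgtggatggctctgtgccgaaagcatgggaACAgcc

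Next are the members with the smallest unadjusted p between the groups. Snord23 (chr7:15938762-15938870, minus strand) lies in an intron of Nop53, which encodes a ribosome biogenesis factor, and Snora34 (chr15:98519716-98519853, minus strand) in an intron of Kansl2, a subunit gene of a histone acetyltransferase complex. Snord15b (chr7:99479563-99479707, minus strand) overlaps an annotated exon of the ribosomal protein gene Rps3.
Snord23: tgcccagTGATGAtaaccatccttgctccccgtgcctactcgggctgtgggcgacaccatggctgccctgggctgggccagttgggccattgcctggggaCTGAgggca
Snora34: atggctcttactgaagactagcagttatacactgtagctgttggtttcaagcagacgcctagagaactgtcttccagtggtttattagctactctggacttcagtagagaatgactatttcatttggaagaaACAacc
Snord15b: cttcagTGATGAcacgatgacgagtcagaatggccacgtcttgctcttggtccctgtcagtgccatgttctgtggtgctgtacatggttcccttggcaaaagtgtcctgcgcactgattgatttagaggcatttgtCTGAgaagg

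Across the classes, 27 of 45 box C/D members (60%) held the C box letters, 40 (88.9%) the D box letters and 25 (55.6%) both in these windows on the RNA strand. ACA stood 3 bases from the end in 21 of 25 H/ACA members (84%) and in 0 box C/D members. Of the H/ACA members, 0 held the C box letters and 2 (8%) the D box letters. The same windows in all 1507 snoRNA transcripts of GENCODE M21 held the C box in 21.8%, the D box in 31.4%, both in 20.3% and the ACA in 18.3%. A match describes the letters only, and no match says only that these exact letters were not in the window, as for the C box of Snord42b and both boxes of Snord91a.

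The gene models behind the RPKM values were short. Their length, worked back with the reads, had a median of 68 bases for box C/D and 118 bases for H/ACA members. The model length equalled the RefSeq length in 65 of 70 loci. The RefSeq length was tried first and kept where it gave whole reads, so this match is no separate check. The GENCODE transcript was longer than the model in 61 loci, by a median of 10 bases in box C/D and 17 bases in H/ACA members over all of each class. The widest gap was at Snora61, whose model covered 62 of 130 bases. At the median length of 81.5 bases 1 read was worth between 0.303 RPKM in control replicate 3 and 0.811 RPKM in cKO replicate 4.

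Levels of the members therefore rested on few reads. The 70 loci held 3817 reads over all 6 libraries, 2062 in box C/D and 1755 in H/ACA members. A member had a median of 5.92 reads per library, with a range from 1 to 48.5, and 18 members had a mean of at least 10. Reads were present in all 6 libraries for 56 members, 9 were at 0 in 1 library, and 5, all box C/D, were at 0 in at least 2. Mean levels ran from 0.505 to 13.6 RPKM with a median of 2.16 RPKM. A mean of at least 5 RPKM was reached by 17 members, 11 of them box C/D, and at least 1 RPKM by 57.

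**Figure D1:**
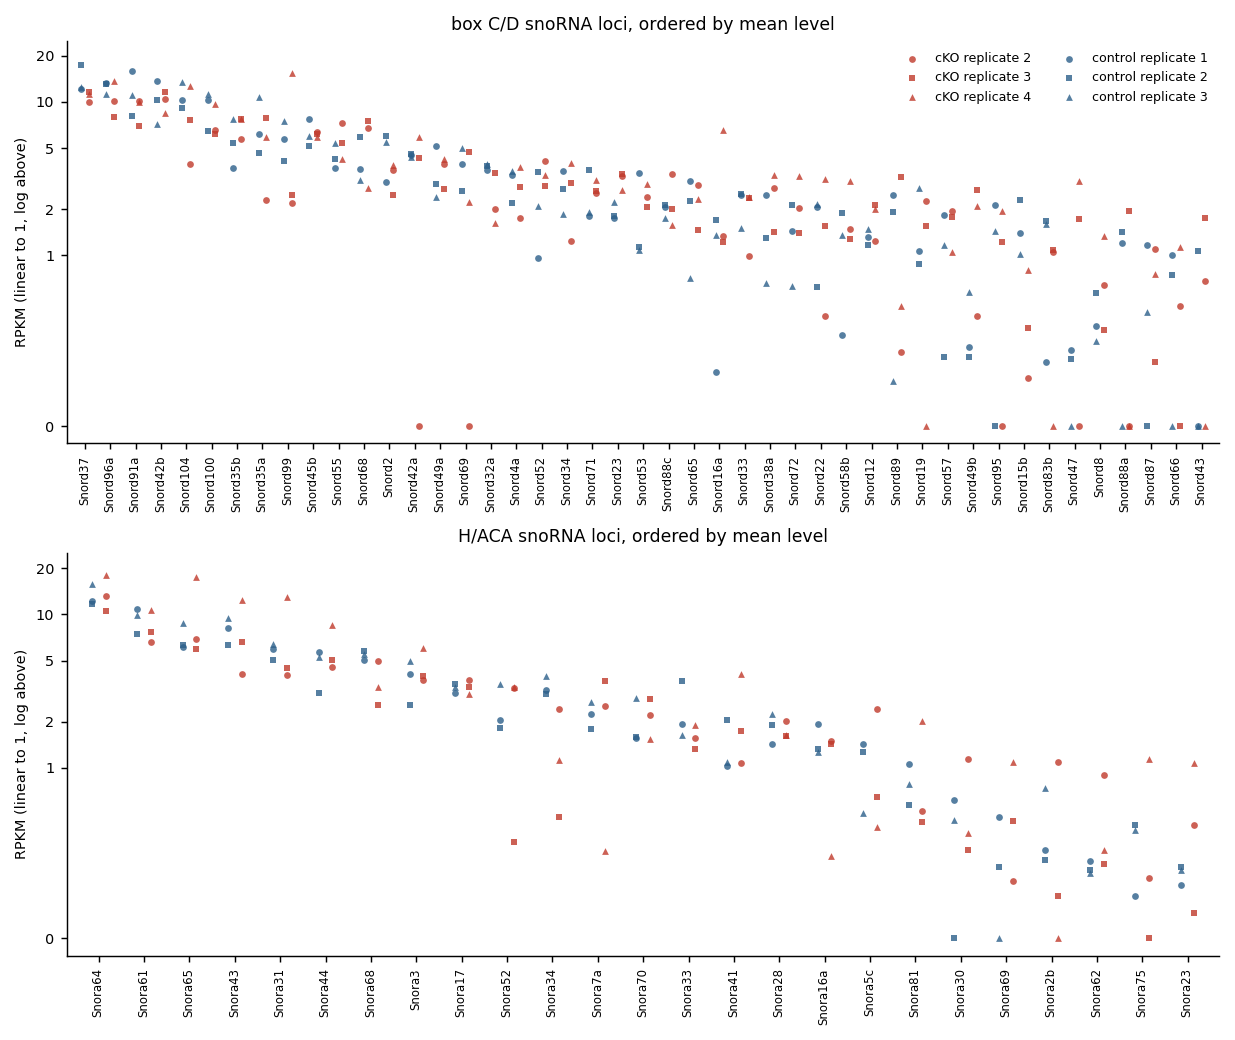
RPKM of each of the 70 members (x axis, ordered by mean level) in the 6 libraries, box C/D above and H/ACA below, on an axis that is linear to 1 RPKM and logarithmic above. Red symbols are cKO and blue symbols control libraries. For most members the symbols of both groups interleave, and 14 members have at least 1 library at 0.

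In the box C/D class the highest level was that of Snord37, a guide for methylation of the large-subunit rRNA. Snord37 had 10.0, 11.6 and 11.2 RPKM in cKO replicates 2, 3 and 4 and 12.1, 17.4 and 12.6 RPKM in control replicates 1, 2 and 3, from 9 to 36 reads. All 3 cKO values lay below the controls, with a log2 difference of -0.33 ± 0.14 (SE, n = 3 per group) and a limma adjusted p of 0.847. Control replicate 2 stood highest, and the other control values lay just above the highest cKO value.

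Snord96a had 10.1, 7.97 and 13.7 RPKM in cKO and 13.2, 13.0 and 11.2 RPKM in control libraries. Snord91a had 10.2, 6.97 and 9.92 RPKM against 16.0, 8.12 and 11.1 RPKM. Snord42b, a guide for the small-subunit rRNA, had 10.4, 11.7 and 8.41 RPKM against 13.7, 10.3 and 7.18 RPKM. In these 3 members the groups overlapped, and the order of the libraries differed from member to member: cKO replicate 4 was the highest for Snord96a, control replicate 1 for the other 2. Snord104, for which no host gene was found in the annotation used, spread more widely. It had 3.91, 7.64 and 12.7 RPKM in cKO and 10.3, 9.14 and 13.5 RPKM in control libraries. The remaining members of the 8 highest box C/D loci were Snord100, Snord35b and Snord35a, with means of 8.40, 6.33 and 6.28 RPKM. Of these Snord100 lies in Rps12 and Snord35a in Rpl13a. The limma adjusted p-values of the 8 loci were 0.847 or above. Neighbours in this order differed in mean level by less than the larger SD of their groups, which reached 4.40 RPKM in the cKO libraries of Snord104.

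Among H/ACA members Snora64, a guide for the large-subunit rRNA, stood first with 13.2, 10.5 and 18.1 RPKM in cKO and 12.2, 11.6 and 15.8 RPKM in control libraries. It had more reads than any other member, from 32 to 75 per library. The highest value of each group was in cKO replicate 4 and control replicate 3, and the groups overlapped. Snora61, next in order, had 6.58, 7.65 and 10.7 RPKM against 10.8, 7.45 and 9.95 RPKM. The means of Snora64 and Snora61, 13.6 and 8.84 RPKM, were further apart than the SD of either, though their ranges touched, while later neighbours in the order differed by less than their spread.

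For several H/ACA loci cKO replicate 4 stood well apart from the other 5 libraries. Snora65 had 17.4 RPKM there, from 31 reads, against 6.91 and 5.91 RPKM in the other cKO libraries and 6.15, 6.30 and 8.78 RPKM in the controls. Snora31, in an intron of Tpt1, had 13.0 RPKM there against 4.01 and 4.48 RPKM in the other cKO libraries and 5.96, 5.04 and 6.39 RPKM in the controls. Snora43, for which no host was found in the annotation used, had 12.4 RPKM there. It otherwise had 4.11 and 6.62 RPKM in cKO and 8.15, 6.27 and 9.41 RPKM in control libraries. In all 3 loci the groups overlapped. Without cKO replicate 4 the log2 difference of Snora65 turned from 0.34 to -0.12 and that of Snora31 from 0.10 to -0.40. Snora44, Snora68 and Snora3 completed the 8 highest H/ACA loci, with means of 5.34, 4.54 and 4.23 RPKM. Of these Snora44 lies in Snhg12 and Snora3 in Rpl27a.

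The level that defines membership fell among loci with few reads. Just inside it were Snora23 in Ipo7, Snora75 in the nucleolin gene Ncl and Snora62 in Rpsa, with means of 0.505, 0.507 and 0.525 RPKM from 15, 10 and 12 reads. Just outside were Snora47, Snord17 and Snord73a, with means of 0.455, 0.440 and 0.410 RPKM from 13, 18 and 6 reads. Of the 35 rows below the level, 21 had reads, 106 in all, and 14 were at 0 in every library. The latter included Snord116, Snord116l1 and Snord116l2, the repeated loci of an imprinted cluster. For a locus of 90 bases such as Snord116l1, a count of 0 allows up to 0.176 RPKM over the 6 libraries together, taking 3 reads as the limit. How reads that match several copies were treated is not given in the sources used here, so near-identical loci are uncertain. Intervals and limits given here cover counting error only and leave out the spread between libraries. The reads also carry no molecular identifiers.

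Summed over the members, the classes took a small share of each library. All 70 members together took 17.6, 18.4 and 25.9 RPM (reads scaled to depth as in RPKM, but not divided by length) in cKO replicates 2, 3 and 4 and 20.7, 18.9 and 21.9 in control replicates 1, 2 and 3. The value of cKO replicate 4 was the highest, with an exact Poisson 95% interval of 23.4 to 28.6, while cKO replicates 2 and 3 were the lowest, so the control values lay inside the cKO range. Box C/D members took 10.8 ± 1.95 (SD, n = 3) RPM in cKO and 11.1 ± 0.451 in control libraries. H/ACA members took 9.82 ± 2.87 in cKO and 9.35 ± 1.17 in control libraries. With the reads of a group added up, the ratio of cKO to control was 0.958 for all members (Clopper-Pearson 95% interval 0.897 to 1.02), 0.947 for box C/D (0.866 to 1.04) and 0.971 for H/ACA (0.881 to 1.07).

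**Figure D2:**
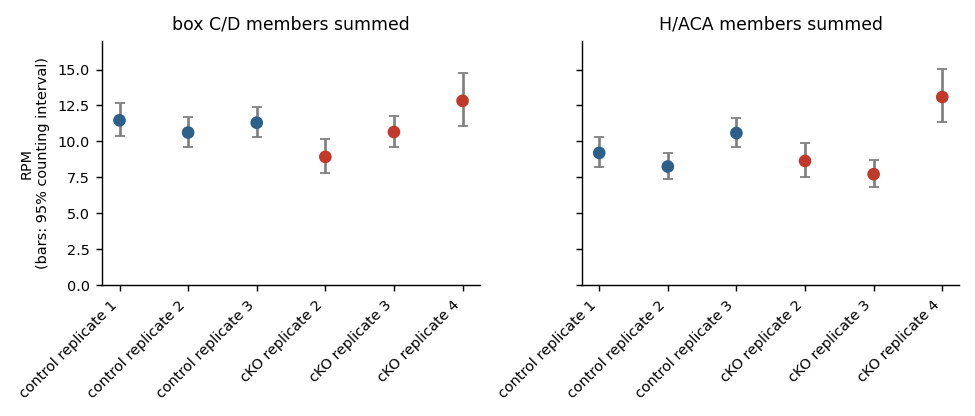
RPM of the summed box C/D members (left) and H/ACA members (right) in each library, with exact Poisson 95% intervals as bars (counting error only). In both classes cKO replicate 4 is highest, and cKO replicate 2 (C/D) or 3 (H/ACA) is lowest.

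The library with the fewest reads, cKO replicate 4, stood apart from the other cKO libraries. It was the highest library for 24 of 70 members, against 8 to 10 for each other library. Without it the ratio over all members was 0.881, and the remaining cKO libraries lay below all controls, at a mean of 17.98 against 20.48 RPM. The H/ACA ratio was then 0.864, and 1.10 without cKO replicate 3. The summed RPKM of the list of mostly noncoding snoRNA hosts was also highest in this library, at 275 against 155 to 202 in the others. The summed RPKM of other short RNAs was lowest there, at 68.1 against 78.3 to 126. Lens crystallins were lowest there as well. The part of these differences in the snoRNA values was not tested. Within groups the reads of a member varied by a mean chi-square of 1.40 per degree of freedom, where counting error alone gives about 1, and 12 members were above 2.

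No member passed the threshold of an adjusted p of 0.05 between cKO and control libraries by limma on log2(RPKM + 0.5), adjusted over all 13663 rows with a mean of at least 0.5 RPKM. The count of 0 of 70 stands beside 0.00732% of all rows tested (1 row). At an unadjusted p under 0.05 there were 6 members (8.57%), 2 higher and 4 lower in cKO, against 5.9% of all rows. limma voom on the worked-back reads also called 0 members. In such bulk libraries fewer cells of a type and less RNA per cell cannot be told apart, and a difference in either would appear in the same way.

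The 70 members split evenly by direction, 36 higher and 34 lower in cKO (51.4% higher, against 48.1% of all rows tested). The median log2 difference was -0.02 for box C/D and 0.03 for H/ACA members, against -0.01 over all rows. A single member had all 3 cKO values above all 3 controls (1.43%), against 5.86% of all rows. The cKO values were all below the controls for 5 members (7.14%), against 6.07% of all rows. These shares are near those of the whole table or below them. The members' differences were imprecise: their median SE was 0.32 on the log2 scale, against 0.11 over all rows and 0.16 over the 666 rows in the same range of reads. Those rows had more reads within that range, a median of 29 against 5.92, so they are not matched on depth. In those 666 rows 10.4% had an unadjusted p under 0.05.

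**Figure D3:**
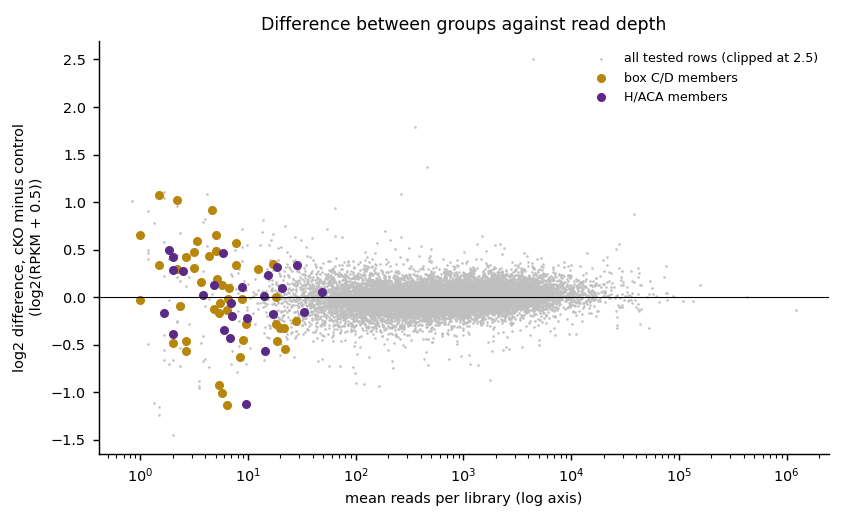
Log2 difference between cKO and control (y axis, log2(RPKM + 0.5), clipped at 2.5) against the mean reads per library (x axis, logarithmic) for all 13663 rows tested in grey, with box C/D members in gold and H/ACA members in purple. The members sit at the low end, between 1 and 48.5 reads, where differences spread to both sides of 0.

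The smallest p among the members was that of Snord23. Its level was 3.30, 3.38 and 2.67 RPKM in cKO replicates 2, 3 and 4, from 8, 12 and 4 reads. In control replicates 1, 2 and 3 it was 1.76, 1.81 and 2.24 RPKM, from 6, 7 and 9 reads. All 3 cKO values were above the controls, by 0.57 ± 0.12 (SE) on the log2 scale, with a limma p of 0.00137 before and 0.506 after adjustment. By an exact permutation test over the libraries, two-sided, p was 0.1, and this design of 3 against 3 cannot reach a lower value. The ratio of RPM was 1.65 with an interval of 0.884 to 3.08, which includes 1. Its host Nop53, listed under the older name Gltscr2, had 114 ± 15.9 RPKM in control and 107 ± 7.45 in cKO libraries (SD, n = 3).

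Snora34 had the smallest p of the H/ACA members. The cKO libraries had 2.42, 0.709 and 1.12 RPKM, from 7, 3 and 2 reads, and the controls 3.2, 3.04 and 3.97 RPKM, from 13, 14 and 19 reads. Each cKO value lay below each control value, by -1.12 ± 0.29 on the log2 scale, with a limma adjusted p of 0.641. The ratio of RPM was 0.394, with an interval of 0.19 to 0.755 that covers counting error only, not the spread between libraries. The host Kansl2 had the opposite sign, at 7.37 ± 0.606 RPKM in control and 8.20 ± 0.68 in cKO libraries, a log2 difference of 0.15 and an adjusted p of 0.943.

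Snord15b, a guide for the large-subunit rRNA, had 0.281, 0.577 and 0.912 RPKM in cKO and 1.40, 2.30 and 1.02 RPKM in control libraries, from 1 to 13 reads. The groups did not overlap, with a log2 difference of -0.92 ± 0.27 and a limma adjusted p of 0.746. Snord32a in Rpl13a had 2.01, 3.44 and 1.63 RPKM in cKO and 3.59, 3.80 and 3.96 RPKM in control libraries. The highest cKO value of Snord32a was just under the lowest control value, and the difference was -0.63 ± 0.20 with an adjusted p of 0.809. Snora68, a guide for the large-subunit rRNA, had 4.99, 2.56 and 3.37 RPKM against 5.04, 5.76 and 5.54 RPKM, a difference of -0.56 ± 0.19 with an adjusted p of 0.809. Here too cKO replicate 2 nearly reached the lowest control.

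Snord49b, in an intron of the noncoding gene 2410006H16Rik, had 0.647, 2.66 and 2.10 RPKM in cKO and 0.461, 0.407 and 0.783 RPKM in control libraries, from 1 to 6 reads. The groups overlapped, the log2 difference was 1.02 ± 0.35, and the limma adjusted p was 0.809. The ratio of RPM, 3.40, had an interval of 0.948 to 15.1. Within each class, the members with the next smallest p on the higher side were Snord52, Snord12, Snora44, Snora62, Snora69 and Snora41, with log2 differences of 0.66, 0.30, 0.32, 0.29, 0.50 and 0.46. On the lower side, again within each class and beside Snord37, stood Snord2, Snora33 and Snora16a, with -0.45, -0.43 and -0.34. Adjusted p-values of these 9 members ran from 0.891 to 0.969, and their groups overlapped.

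The 39 members not yet given by value had means between 0.533 and 6.22 RPKM from 6 to 84 reads in all, and 12 of them were at 0 in at least 1 library. Of these, 21 were higher and 18 lower in cKO, with log2 differences from -1.14 to 1.07 and adjusted p-values of at least 0.919. The ends of that range were chosen here after their values were seen. Snord69 in the nucleostemin gene Gnl3, at -1.14 ± 0.75, had 0, 10 and 2 reads in cKO and 8, 6 and 12 in control libraries. Snord47 in Gas5, a noncoding gene that hosts many box C/D snoRNAs, was at the other end with 1.07 ± 0.65 and had reads in 4 of 6 libraries. Each has at least 1 library at 0.

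Host genes were found for 67 members, in 49 distinct hosts. Of these hosts 48 have a row in the table, and they hold 66 members. Ribosomal protein genes (Rpl, Rps) hosted 28 members and noncoding genes 13. For Snora17, Snora43 and Snord104 no gene other than a snoRNA held the locus within its GENCODE span on the same strand. A host by other annotation is not excluded, and these loci are left out of the comparison with hosts. In the GENCODE annotation 39 members overlapped an exon of a host transcript and 28 lay in introns only. Mean levels of the first had a median of 2.08 RPKM and those of the second 2.16 RPKM. The classes differed in this. In box C/D the medians were 2.05 RPKM with exon overlap (23 members) and 2.53 RPKM without (21 members). In H/ACA they were 2.17 RPKM with overlap (16 members) and 0.631 RPKM without (7 members). Reads of host and snoRNA on shared bases cannot be told apart. Nor, without strand, can those of 5 members, among them Snora23 and Snord35b, from a gene on the opposite strand.

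The host level per length was above that of its member in 56 of 66 pairs. Eef2, at 508 RPKM, hosts Snord37 at 12.5 RPKM, and Rack1, listed as Gnb2l1 at 180 RPKM, hosts Snord96a at 11.5 RPKM. In contrast Rpl12 and Rpl23a were listed at 2.75 and 1.38 RPKM, below their members Snora65 and Snord42b. Tpt1, the host of Snora31, was at 0.208 RPKM and not tested. Ribosomal protein genes have many near-identical copies in the genome, so the levels of such hosts, Rpl12 and Rpl23a among them, are uncertain. The part of such copies in the low levels of Rpl12, Rpl23a and Tpt1 was not tested. Over 65 pairs with both tested, the mean levels of member and host had a Spearman rho of -0.02. The points share libraries, and several share a host.

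Mean levels of members of 1 host differed, though some of these differences lay within the spread of the libraries. Snhg12 hosts Snora61, Snora44, Snora16a and Snord99, with means of 8.84, 5.34, 1.32 and 6.22 RPKM, and Rpl13a hosts Snord35a, Snord32a, Snord34 and Snord33, with 6.28, 3.07, 2.72 and 2.05 RPKM. Snord99 is named here after its values were seen: it had 15.3 RPKM in cKO replicate 4, from 13 reads, and 2.19 to 7.49 RPKM in the other libraries. Snhg12 itself had 18.4 RPKM in that library, against 8.55 and 12.6 in the other cKO libraries and 16.44, 12.02 and 16.98 in the controls. In Rpl23a, Snord42b had 10.3 RPKM and Snord42a and Snord4a 3.95 and 2.89 RPKM. The last 2 had similar reads in all, 34 and 38, as had Snord34 and Snord33, with 33 and 32. The models of Snord34 and Snord33 were 66 and 82 bases long.

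Of the 47 host rows tested, 0 passed the limma threshold, 11 were higher and 36 lower in cKO. Over all rows tested 0.00732% passed and 48.1% were higher. A limma unadjusted p under 0.05 was reached by 1 of the 47 hosts (2.13%), Rpl12, against 5.9% of all rows. The log2 difference of Rpl12 was -0.32, with an adjusted p of 0.836. The hosts' median log2 difference was -0.07, against -0.01 over all rows. Across the 65 pairs the differences of member and host had a Pearson r of -0.10 and a Spearman rho of -0.03, and 24 pairs (36.9%) had the same sign. These are descriptions across genes that share all 6 libraries, and the members' large SE bears on them.

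**Figure D4:**
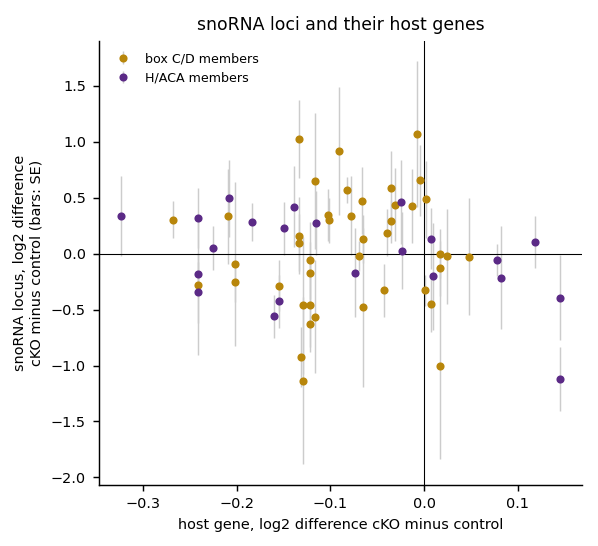
Log2 difference between cKO and control of each member (y axis, bars are SE) against that of its host gene (x axis) for 65 pairs, box C/D in gold and H/ACA in purple. Hosts range from -0.32 to 0.15 and members from -1.14 to 1.07, and the points show no common slope.

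No gene of the proteins that bind snoRNAs passed the test. For the box C/D core, fibrillarin (Fbl, the methyltransferase) had 2.33 ± 0.211 RPKM in control and 2.31 ± 0.14 in cKO libraries (SD, n = 3), Nop56 19.4 ± 1.39 and 19.2 ± 1.98, Nop58 8.52 ± 0.691 and 7.59 ± 0.608, and Nhp2l1 (the kink-turn protein) 3.68 ± 0.731 and 3.33 ± 0.458. The limma adjusted p-values of these 4 genes were at least 0.923. For the H/ACA core, dyskerin (Dkc1, the pseudouridine synthase) had 6.33 ± 0.809 RPKM in control and 5.43 ± 0.368 in cKO libraries, Gar1 10.9 ± 0.761 and 11.6 ± 3.13, Nhp2 15.2 ± 3.68 and 14.9 ± 2.69, and Nop10 15.5 ± 2.65 and 12.6 ± 2.36. Together with 12 assembly and maturation factors, 0 of 20 passed, 3 were higher and 17 lower, with a median log2 difference of -0.09. Over all rows tested 0.00732% passed, 48.1% were higher and the median was -0.01. A limma unadjusted p under 0.05 was found for 1 of the 20 (5%), against 5.9% of all rows. This was Shq1, a dyskerin chaperone, at -0.23 with a limma adjusted p of 0.836.

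The table holds 16 genes of a list of long host transcripts, noncoding except for the protein-coding Snrpn and Snurf. Of these 15, Snrpn among them, were tested, 0 passed, 7 were higher and 8 lower in cKO. Over all rows tested 0.00732% passed and 48.1% were higher. Gas5 had 10.8 ± 1.38 RPKM in control and 11.1 ± 3.69 in cKO libraries, Snhg1 8.13 ± 0.946 and 8.40 ± 2.13, and Snhg12 15.1 ± 2.72 and 13.2 ± 4.97. The SD of each of the 3 was larger in the cKO group. The highest level in this list was that of Snhg11, whose value of 110 RPKM in cKO replicate 4 stood above the 52.3 to 69.5 RPKM of the other libraries.

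Other short RNAs without a regular poly(A) tail were also present. The guide RNAs of Cajal bodies, nuclear structures where spliceosomal RNAs are modified, were led by Scarna17 with a mean of 52.9 RPKM per length, above every snoRNA member. Among 16 listed RNAs of this kind, 6 were tested, 0 passed, 1 was higher and 5 lower in cKO, and 2 (33.3%) had an unadjusted p under 0.05, against 5.9% of all rows. Rmrp, the RNA of the ribonuclease that processes rRNA and mitochondrial primers, had 10.1, 6.09 and 6.49 RPKM in cKO and 18.6, 14.6 and 10.6 RPKM in control libraries. Its groups did not overlap, the log2 difference was -0.91 ± 0.23, and the limma adjusted p was 0.641. Scarna13 was at -0.37 with an adjusted p of 0.813. A further list held 68 rows named as genes of the replication-dependent histone clusters, whose mRNAs mostly end in a stem-loop. The rows were taken by name and include pseudogenes such as Hist2h3c2-ps, so not each is such an mRNA. Of these rows 19 were tested, with 0 passing, 8 higher and 11 lower. Of the latter 5 (26.3% of those tested) had a limma unadjusted p under 0.05, against 5.9% of all rows. Of 5 nuclear retained RNAs tested, Malat1 and Neat1 among them, 0 passed, with 4 higher and 1 lower. Over all rows tested 48.1% were higher in cKO.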

How the data were processed

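Poly(A) RNA-seq libraries of whole mouse retina, 3 cKO and 3 control, were compared as grouped by the labels. The authors deposited 1 table of RPKM values per gene and library. The submitters' processing notes name GSNAP, HTSeq and mm9 without versions. The gene annotation, length model and the handling of reads with several matches were not given in the sources used here.

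Reads were recovered from the steps of the deposited RPKM values with RefSeq lengths of short RNAs. Whole reads were found for 19140 of 19140 rows above 0, returning the deposited RPKM within 5e-06. The search kept only lengths that gave whole reads at this precision, so this match is no separate check. Of the short RNA genes above 0, between 96.4% (cKO replicate 4) and 97.5% (cKO replicate 2) had whole reads at their RefSeq length. The values cannot show whether reads of cKO replicate 4 were counted 2 times. Class intervals are exact Poisson and ratio intervals Clopper-Pearson, both at 95%. Ratios use the added reads of each group, so deeper libraries weigh more and the intervals leave out the spread between libraries.

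limma (R 4.3.3, limma 3.58.1, variance trend, no covariate) was fitted to log2(RPKM + 0.5) over all 13663 rows with a mean of at least 0.5 RPKM, two-sided, with Benjamini-Hochberg adjustment and a threshold of 0.05. On this scale the change of low genes is understated. The fit and the read step were run on simulated data. How well the fit finds differences at the few reads of the members was not tested. Nor was the read step tested at the loci with the fewest reads. Host genes and sequences are from GENCODE M21 on GRCm38, with older symbols matched through RefSeq.

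The members and gene lists were chosen with earlier results of these data known. The genes named are the 8 members of each class with the highest mean, the 4 of each class with the smallest p in each direction, the 3 loci on either side of the 0.5 RPKM level, the hosts of named members and the core snoRNP proteins. The gene lists of other short RNAs, histones, nuclear retained RNAs and cell type markers are described by their counts. Alternatives were other pseudocounts (0.1 and 1 RPKM), other filters, median centring, limma voom on the worked-back reads, leaving out each library, and a replicate block. All 6 sample columns were used. A few host and marker genes are not reported here.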

Additional observations from a re-analysis of the deposited data

How the results depend on the processing

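The count of 0 members past the threshold stood in every alternative but the replicate block, and the count of 0 snoRNP protein genes in all of them. The replicate block could use only the 4 libraries whose numbers occur in both groups, with 1 residual degree of freedom. It gave 8 of 70 members (3 higher, 5 lower), against 111 of 13663 rows of the whole table. At a limma unadjusted p under 0.05 it gave 37 of the 70 members, against 2312 of the 13663 rows. It also gave 1 host gene and 2 of the mostly noncoding hosts past the threshold. The same 4 libraries unpaired gave 0 members. Deviations of libraries with the same number had correlations of 0.433 (replicate 2) and -0.0606 (replicate 3), and the highest of all pairs, 0.450, was between cKO replicate 4 and control replicate 3. No label ties the numbers to a shared litter or batch, so they were not taken as pairs. The whole-table count of 1 became 3 with no filter, 3 with median centring, 2 with voom and 2 with voom and median-of-ratios scaling. The median log2 difference of box C/D members, -0.02, was -0.29 over the 9 with at least 10 reads, 0.12 with voom and 0.13 with voom and median-of-ratios scaling, and ran from -0.0379 to 0.1549 when each library was left out. Leaving out libraries, an alternative chosen after seeing the data for this measure, moved the read ratio over all members between 0.881 and 1.01 and over H/ACA members between 0.864 and 1.10. The cause was not tested.

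Of 477 values of the 31 named members under 16 alternatives, 444 kept their sign and side of the threshold, 28 changed sign and 5, all under the replicate block, came to pass it. Under both voom fits Snora64 was at -0.0168 and -0.0046 and Snora31 at -0.0304 and -0.0108. In the 4 libraries with shared numbers, with or without the replicate block, Snora64 was at -0.19, Snora65 at -0.21, Snora31 at -0.38, Snora41 at -0.10, Snora16a at 0.13 and Snora23 at -0.0632. Leaving out each library gave ranges that cross 0 for Snord42b (-0.23 to 0.22), Snord35a (-0.78 to 0.0074), Snora64 (-0.14 to 0.23), Snora65 (-0.12 to 0.62), Snora43 (-0.54 to 0.20), Snora31 (-0.40 to 0.39), Snora3 (-0.007 to 0.41), Snora23 (-0.0104 to 0.63) and Snora75 (-0.61 to 0.24). Of the 70 members, 18 had a mean of at least 10 reads per library.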
